A study of Homo sapiens with 54 samples.

Results

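Olaparib-resistant (OlaR) cells were compared with their isogenic olaparib-treated parental cells in 2 triple-negative breast cancer (TNBC) lines, to ask which genes changed alike in both, which changed in opposite directions and where the lines differed. The members are 12 of the 54 RNA libraries of the study, chosen by their labels as 3 libraries from each of 4 groups. The SUM1315 line is BRCA1 mutant and the MDA-MB-468 line is BRCA1 wild type. Parental SUM1315 cells had received 8 µM olaparib and parental MDA-MB-468 cells 3 µM, overnight. OlaR cells are populations that the authors selected with rising olaparib doses over months and then kept in olaparib without a break, at 25 µM for SUM1315 and 15 µM for MDA-MB-468. All 4 groups therefore carried olaparib, and resistance, dose and length of exposure cannot be told apart in the comparison of OlaR with parental cells. The other 42 libraries of the study, with untreated cells or cells given cisplatin (CDDP), were part of the fits, where they add to the estimate of the spread, and their values are given only where they are named.

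PARP1 binds to breaks in DNA and marks itself and nearby proteins with chains of ADP-ribose, which recruit repair factors. Olaparib blocks this step and holds PARP1 on DNA, and cells without BRCA1 or BRCA2 repair the resulting damage poorly because homologous recombination needs both proteins. Cells that outlast the drug are known to do so by regaining recombination, by losing factors such as TP53BP1 that protect DNA ends, by changing PARP1 or the enzyme PARG that removes ADP-ribose, or by pumping the drug out through ABCB1.

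The depth was 3446613 to 3900438 reads per OlaR SUM1315 library and 5763500 to 6943388 per olaparib-treated one, and for MDA-MB-468 it was 4588288 to 4676284 and 6867889 to 9268162. Values are given as adjusted read counts, the number of reads of a gene after the authors had brought every library to the size of 5585170. The label of the lines was checked against epithelial markers: KRT19 and EPCAM had means of 16490 and 2990 in olaparib-treated MDA-MB-468 cells and of 0.637 and 1.20 in SUM1315 cells, where VIM, a mesenchymal filament, had 13000. So SUM1315 cells lack 2 usual markers of epithelial cells. Defining markers of blood cells (PTPRC, CD3E, CD3D, MS4A1 and HBB) had means of at most 1.596 in each group. Of 17 markers of other cell types, 5 were high enough to test in SUM1315 cells and 4 of them (CD14, COL1A1, PECAM1 and PDGFRB, of monocytes, fibroblasts, endothelium and pericytes) were lower in OlaR cells. The endothelial markers CDH5 and VWF had at most 1 read per SUM1315 library, and CD68, the other marker of monocytes and macrophages, had means of 6.70 in OlaR and 2.57 in olaparib-treated SUM1315 cells. Their summed level was 235.8 to 324 in OlaR and 775.5 to 807 in olaparib-treated SUM1315 libraries, and 46.6 to 47.7 and 70.0 to 100.3 in those of MDA-MB-468, and their part in the results was not tested. Replicate 3 of olaparib-treated SUM1315 cells stood apart from the others of its group, since the chi-square of its reads against those of the other 2, per degree of freedom, was 8.27 and 8.26, and 2.86 between these 2. For replicate 3 of olaparib-treated MDA-MB-468 cells the same values were 4.58 and 5.64, and 3.16 between the others. The labels do not say that replicates came from separate cultures, so p-values measure the spread between these libraries, which may be technical.

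Within each line, genes were tested with limma on log2 of the adjusted read count plus 1, and genes were called DEGs when they changed at least 2-fold with a Benjamini-Hochberg adjusted p no larger than 0.05. In SUM1315 cells, 987 of 13133 genes were higher in OlaR than in olaparib-treated parental cells (7.52%) and 1190 were lower (9.06%). In MDA-MB-468 cells, 928 of 13012 genes were higher (7.13%) and 927 were lower (7.12%). When each library was centred on its median, which moved the median change over all genes from -0.05 to 0.04 in SUM1315 cells and from -0.03 to 0.03 in MDA-MB-468 cells, 1165 were higher and 1027 lower in the former and 1043 and 817 in the latter. Of the 11755 genes tested in both lines, 1669 were DEGs in SUM1315 cells and 1418 in MDA-MB-468 cells. DEGs of both lines numbered 398, which is 23.8% of the former and 28.1% of the latter. Among these, 245 (61.6%) changed in the same direction, 146 of them higher and 99 lower in OlaR cells of both lines. The remaining 153 moved in opposite directions, 60 higher in SUM1315 and lower in MDA-MB-468 OlaR cells and 93 the other way. Across the 11755 genes, the log2 fold changes of the lines had a Pearson correlation of 0.124 and a Spearman correlation of 0.156, given as a description because genes are not independent replicates. Without replicate 3 of olaparib-treated SUM1315 cells, there were 2124 DEGs in SUM1315 cells, 145 concordant higher, 102 concordant lower and 134 discordant genes. Without replicate 3 of olaparib-treated MDA-MB-468 cells, there were 1799 DEGs in MDA-MB-468 cells, 138 concordant higher, 99 concordant lower and 146 discordant genes.

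**Figure D1:**
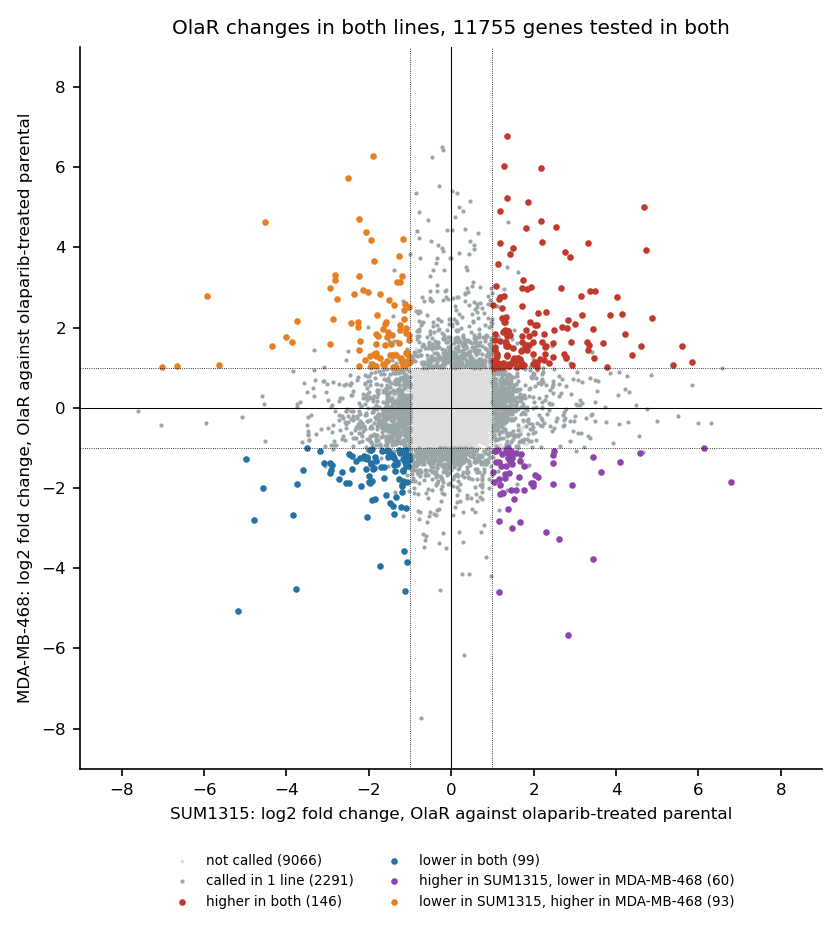
Each point is 1 of the 11755 genes tested in both lines, with its log2 fold change between OlaR and olaparib-treated parental SUM1315 cells on the x axis and the same for MDA-MB-468 cells on the y axis. Coloured points are the 146 concordant higher, 99 concordant lower and 153 discordant DEGs, which fill all 4 corners beyond the dotted lines at a log2 fold change of -1 and 1.

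The difference between the lines was tested in itself, as a line interaction in a limma fit of all 54 libraries with no limit on its size. It passed at an adjusted p of at most 0.05 for 5276 of 11755 genes (44.9%), of which 2589 (22% of all) had a positive difference (SUM1315 minus MDA-MB-468) and 2687 (22.9%) a negative one. The difference was at least 1 on the log2 scale for 2315 genes. All 153 discordant DEGs had an interaction. They were chosen in the same libraries for opposite changes of at least 2-fold, so this adds no support of its own. Among the 245 concordant DEGs, 71 had an interaction, with changes that differed in size and not in direction. Of the 1271 genes that were DEGs only in SUM1315 cells, 992 had an interaction, and of the 1020 only in MDA-MB-468 cells, 739 had one. For the other 560 of these 2291 genes, being past the threshold in a single line did not come with a tested difference between the lines. A further 3321 genes had an interaction but were DEGs in neither line.

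OlaR and parental cells of both lines were also compared after overnight CDDP, in libraries that are in neither arm of the comparisons above, though they share their fits. CDDP, which crosslinks DNA, was given at 2 and 4 µM to SUM1315 cells and at 1 and 2.5 µM to MDA-MB-468 cells, each with olaparib. Of the 146 concordant higher genes, 79 were also higher in SUM1315 OlaR cells at the higher dose (5.96% of all genes tested were) and 94 at the lower dose (7.07%). In MDA-MB-468 cells the numbers were 93 at the higher dose (6.41%) and 94 at the lower (6.12%). Of the 99 concordant lower genes, 70 were lower in SUM1315 cells at either dose (9.91% and 8.44% of all genes), and 69 and 73 in MDA-MB-468 cells (8.17% and 7.49%). Among the 60 genes higher in SUM1315 and lower in MDA-MB-468 cells, 35 kept their call at either dose in SUM1315 cells, and 40 and 44 in MDA-MB-468 cells. Among the 93 with the opposite pattern, it was 65 and 70 in SUM1315 and 54 and 62 in MDA-MB-468 cells. The call held in all 4 of these comparisons for 47 concordant higher and 43 concordant lower genes, and for 19 and 30 discordant genes of these 2 patterns. The OlaR and parental cells of these libraries are the same populations as above, so they repeat the measurement and not the selection of resistant cells.

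**Figure D2:**
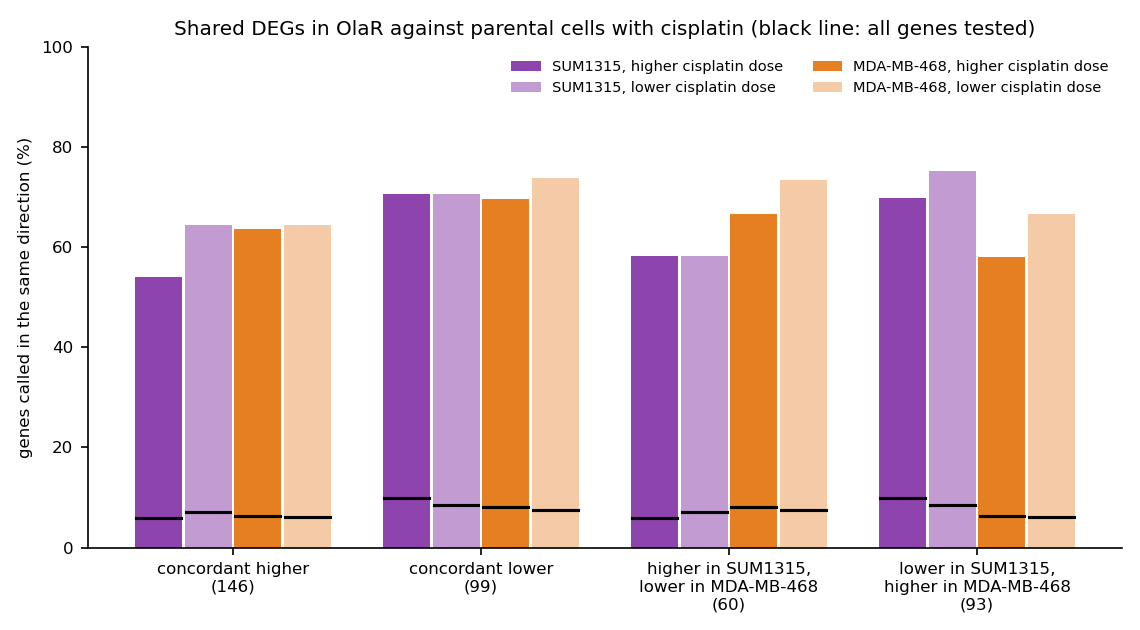
Bars give the percentage of the 146, 99, 60 and 93 shared DEGs of each class that were called in the same direction between OlaR and olaparib-treated parental cells when both had also received CDDP, by line and dose, and the black line on each bar gives the percentage of all genes tested. Every bar is above 40%, and every line is under 10%.

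The concordant higher genes were led by INHBA (chromosome 7, 41685114 to 41705406), which encodes the shared subunit of activins A and AB, ligands of the TGF-β family. It was at 54.2, 59.1 and 42.97 adjusted read counts in the 3 olaparib-treated SUM1315 libraries and at 1359, 1321 and 1346 in the OlaR libraries, so its log2 fold change was 4.67 with a standard error of 0.12 (adjusted p = 1.39e-24 from limma). In MDA-MB-468 cells it was at 18.8, 11.7 and 9.29 and at 438, 468.2 and 410.4, where the log2 fold change was 5.00 with a standard error of 0.23 (adjusted p = 5.82e-25). Neither pair of groups overlapped, and the changes were not shown to differ between the lines (difference -0.33, adjusted p = 0.324), though with untreated cells as the reference the difference was -1.71 (adjusted p = 2.86e-07). SAT1 (chromosome X, 23783173 to 23786210), the acetyltransferase that starts the breakdown of the polyamines spermidine and spermine, rose from 1567, 1628 and 1394 to 9751, 9482 and 9826 in SUM1315 cells. In MDA-MB-468 cells SAT1 rose from 1777, 1872 and 1853 to 14600, 14690 and 14120. These are log2 fold changes of 2.67 and 2.98, and no library of OlaR cells lay near one of parental cells. The difference of -0.31 between the lines had an adjusted p of 0.0138, and of 0.0508 without replicate 2 of olaparib-treated SUM1315 cells.

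KRT17 (chromosome 17, 41619442 to 41624575), a keratin of basal epithelial cells, rose by nearly the same factor in both lines. It went from 820.2, 838 and 900.4 to 3612, 3447 and 3733 in SUM1315 and from 191, 212 and 168 to 789, 827 and 778 in MDA-MB-468 libraries. The log2 fold changes were 2.08 and 2.07, with a difference of 0.0097 (standard error 0.11), which was -0.43 and past the threshold with untreated cells as the reference. CAV1 (chromosome 7, 116525009 to 116561185), the coat protein of caveolae, was at 1585, 1497 and 1531 in olaparib-treated and 5519, 5670 and 5304 in OlaR SUM1315 libraries. It was at 172, 168 and 181 and 1360, 1312 and 1407 in those of MDA-MB-468. The groups were far apart in both lines, and the rise was larger in MDA-MB-468 cells (log2 fold changes of 1.84 and 2.96, difference -1.13, adjusted p = 1.87e-12).

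CTGF, a secreted matrix protein, rose by 3.49 and 2.92 on the log2 scale, from 19.2, 16.4 and 27.1 to 149.8, 166 and 169.5 in MDA-MB-468 libraries. Untreated MDA-MB-468 cells had a mean of 216, so against that reference CTGF was not higher in OlaR cells (log2 fold change -0.41). PPARGC1A, a coactivator of mitochondrial genes, rose by 2.21 and 4.13, and its interaction (adjusted p = 0.0377) was lost without any 1 of 6 libraries, with adjusted p-values of 0.0517 to 0.208. The other genes named by the same rule were the transcription factor ONECUT2 (log2 fold changes 3.45 and 1.97), the G protein subunit GNAZ (1.95 and 3.00), the microtubule-associated FSD1 (1.91 and 2.13), the secretory GTPase RAB3B (1.82 and 1.93) and the long noncoding LINC01605 (2.69 and 2.03). None of these 5 had an interaction, though ONECUT2 had one without replicate 1 or 2 of olaparib-treated SUM1315 cells (adjusted p = 0.0468 and 0.0251). With untreated cells as the reference GNAZ and FSD1 had one too (differences -2.97 and -1.23, adjusted p = 0.000254 and 0.00679), and in SUM1315 cells PPARGC1A (0.42), GNAZ (0.78) and RAB3B (0.9991) were no longer called. SNAR-E, a short noncoding RNA with near-identical copies between which reads could be divided, rose by 4.03 and 2.76. At the higher CDDP dose SNAR-E (0.05), GNAZ (-0.0043) and PPARGC1A (1.32) were not called in SUM1315 cells, nor was ONECUT2 (0.62) in MDA-MB-468 cells.

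Of the concordant lower genes, SNCAIP (chromosome 5, 122311353 to 122464219), which encodes the synuclein partner synphilin-1, was nearly silent in OlaR cells of both lines. The olaparib-treated SUM1315 libraries held 43, 38 and 34 reads and the OlaR libraries 0, which is at least 21.8-fold lower by a floor of 3 reads over the group. In MDA-MB-468 cells it went from 92, 72 and 79 reads to 1, 1 and 0. No library overlapped in either line, and the change was also called at both CDDP doses. SMARCA1 (chromosome X, 129446506 to 129523490), an ATPase that slides nucleosomes, fell from 391, 420.2 and 421 to 34.6, 22.3 and 27.4 in SUM1315 cells. In MDA-MB-468 cells SMARCA1 fell from 219, 241 and 252 to 40.4, 33.4 and 36.4. Its log2 fold changes were -3.85 and -2.66 (adjusted p = 3.76e-19 and 1.26e-20 from limma), and the fall was larger in SUM1315 cells (difference -1.18, adjusted p = 2.03e-05).

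EGR1 (chromosome 5, 138465479 to 138469303), an immediate early transcription factor, fell from 1470, 1511 and 1215 to 56.4, 64.6 and 53.5 in SUM1315 libraries, with log2 fold change -4.56. In MDA-MB-468 libraries it fell from 318, 280.5 and 380.4 to 69.8, 92.5 and 78.9, with log2 fold change -2.01. The fall was larger in SUM1315 cells (difference -2.56, adjusted p = 2.04e-15). PER1, a repressor of the circadian clock, fell from 301, 272 and 243 to 58.6, 61.4 and 73.6 and from 51.4, 49.8 and 78.5 to 20.4, 29.9 and 12.8, and its changes of -2.06 and -1.51 were not shown to differ (adjusted p = 0.138, and 0.0178 and 0.0455 without replicate 3 of OlaR or of olaparib-treated MDA-MB-468 cells). BACE1, the β-secretase, fell by 2.41 and 1.52 on the log2 scale, the zinc transporter SLC39A11 fell by 1.97 and 1.88, and the small GTPase RHOU fell by 2.00 and 1.70. The lipid enzymes that fell were SPTSSB, a small subunit of serine palmitoyltransferase (-1.73 and -3.93), and the phosphatase PLPP6 (-2.73 and -1.79). METTL7A, a methyltransferase, fell by 2.94 and 1.63. MIR210HG, the host transcript of the hypoxia-induced miR-210, fell by 2.18 and 1.95. ZBED5-AS1, whose reads cannot be told from those of an overlapping gene unless strand was counted, fell by 2.48 and 1.88. Against untreated SUM1315 cells its change was -0.20 and that of METTL7A -0.87, both short of the threshold, and SLC39A11 then had a line difference of -1.01 (adjusted p = 0.00996).

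**Figure D3:**
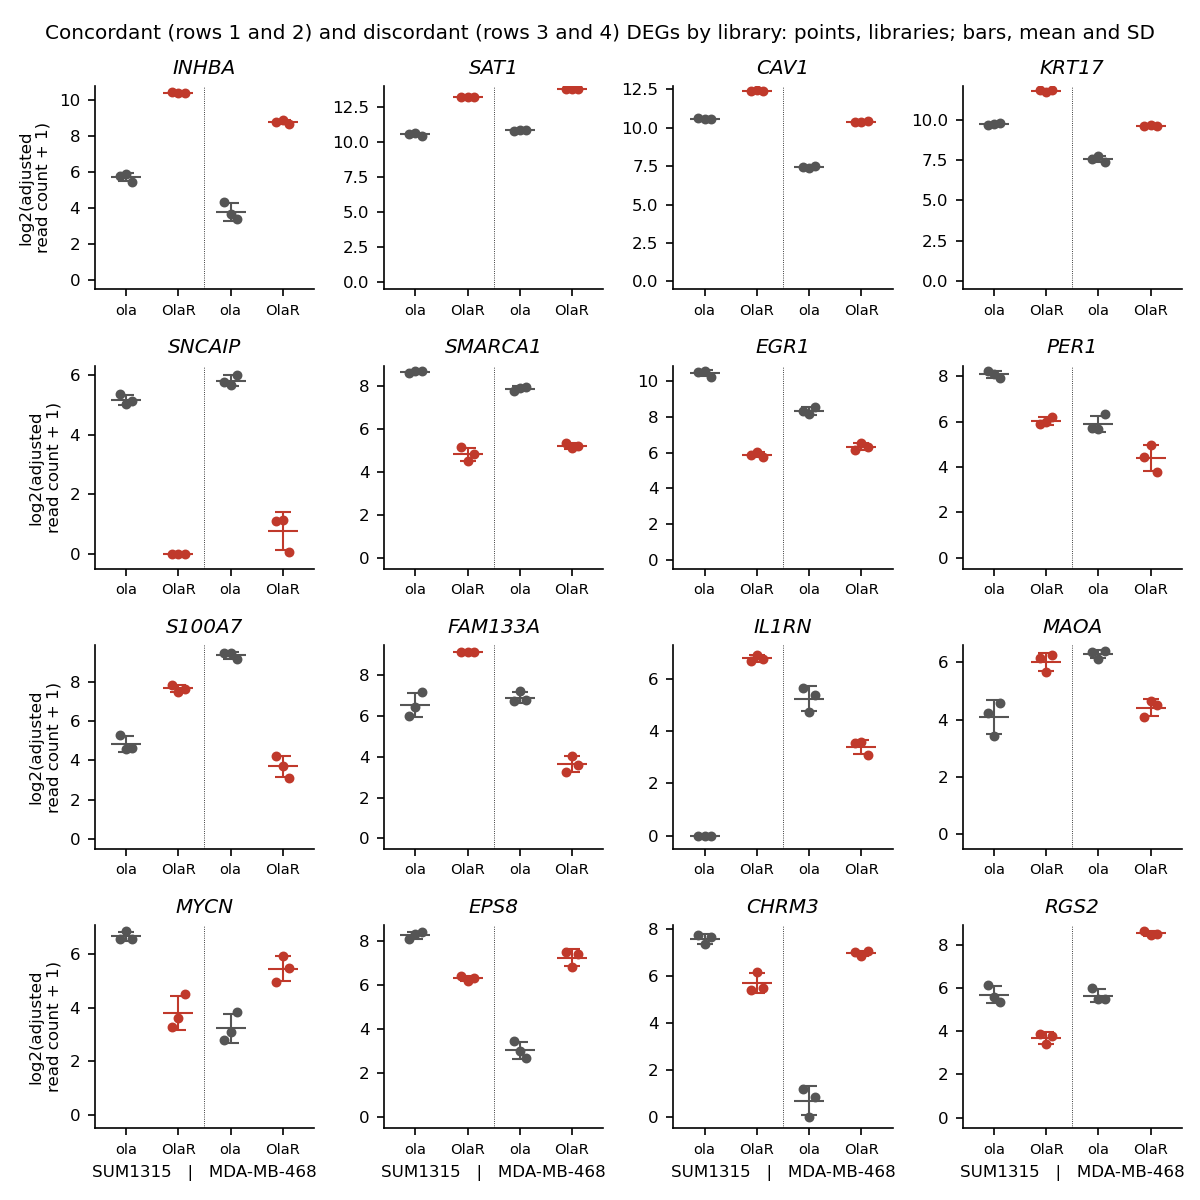
Panels show log2 of the adjusted read count plus 1 for 16 genes in each of the 12 libraries, with SUM1315 left and MDA-MB-468 right of the dotted line, grey for olaparib-treated parental and red for OlaR cells, points for libraries and bars for mean and SD (n = 3). In the top 2 panel rows (INHBA to PER1) the red points move the same way in both lines, and in the lower 2 (S100A7 to RGS2) they move in opposite ways, with no overlap between groups.

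S100A7 and IL1RN were among the 60 genes that rose in SUM1315 and fell in MDA-MB-468 OlaR cells. S100A7 (chromosome 1, 153457744 to 153460651), the antimicrobial psoriasin, was at 38.6, 22.7 and 23.98 in olaparib-treated and 233, 181 and 197 in OlaR SUM1315 libraries. In MDA-MB-468 libraries it was at 709, 699 and 565 and 17.5, 12.3 and 7.68. So the line with the lower parental level rose and the other fell, with log2 fold changes of 2.83 and -5.67 and a difference of 8.50 (standard error 0.41, adjusted p = 1.04e-23 from limma). IL1RN (chromosome 2, 113099360 to 113134014), the antagonist of the interleukin-1 receptor, had no read in olaparib-treated SUM1315 libraries and 64, 71 and 67 reads in OlaR libraries, at least 119-fold higher by a floor of 3 reads over the group. In MDA-MB-468 cells it fell from 48.9, 25.4 and 40.4 to 10.7, 10.9 and 7.49, a log2 fold change of -1.84. Neither pair of groups overlapped, and both changes were called at both CDDP doses.

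MAOA (chromosome X, 43655006 to 43746817), which breaks down monoamines, rose from 17.8, 9.80 and 22.99 to 70.8, 49.8 and 75.1 in SUM1315 libraries and fell from 81.3, 69.05 and 83.2 to 15.9, 24.2 and 21.8 in those of MDA-MB-468. GSDMC, of the pore-forming gasdermins, rose from 11.2, 11.04 and 11.99 to 44.3, 55.7 and 45.3 and fell from 72.8, 66.98 and 59.97 to 17.9, 17.2 and 17.02. FAM133A (chromosome X, 93673681 to 93712265) rose from 63, 87.4 and 143 to 574, 578 and 569 in SUM1315 cells and fell from 105, 148 and 109 to 8.62, 15.6 and 10.99 in MDA-MB-468 cells. For these 3 genes the line differences were 3.83, 3.86 and 5.90 (adjusted p = 2.38e-08, 2.42e-10 and 2.26e-18), and the groups did not overlap in either line. FRMD3 changed by 1.76 and -2.05, though by 0.49 in SUM1315 cells against the untreated reference, short of the threshold. Of 2 small RNAs of the nucleolus and Cajal bodies, SCARNA22 changed by 2.02 and -1.66 and SNORA19 by 1.64 and -1.71. Against untreated cells SNORA19 had a log2 fold change of 0.49 in MDA-MB-468 OlaR cells, the opposite direction, and SCARNA22 one of -0.29, under the fold limit, and small RNAs of this kind usually lack the poly(A) tail that these libraries select.

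CHRM3, RGS2 and EPS8 were among the 93 genes that fell in SUM1315 and rose in MDA-MB-468 OlaR cells. CHRM3 (chromosome 1, 239386568 to 239915450), a muscarinic acetylcholine receptor, fell from 209.5, 160.4 and 196 to 40.6, 70.3 and 42.98 in SUM1315 libraries, a log2 fold change of -1.89 (adjusted p = 1.92e-07 from limma). In MDA-MB-468 cells it went from 2, 0 and 1 reads per library to 107, 92 and 107. RGS2 (chromosome 1, 192809039 to 192812275), which switches off G proteins of the kind such receptors use, fell from 69.5, 46.6 and 39.97 to 13.7, 9.41 and 12.7 and rose from 62.7, 43.01 and 43.02 to 396, 345 and 356. The line difference of RGS2 was -4.89 (adjusted p = 4.34e-17), with no overlap of groups in either line. EPS8 (chromosome 12, 15620134 to 15789388), an actin regulator downstream of the EGF receptor, fell from 272, 314 and 339 to 84.8, 72.3 and 78.3 in SUM1315 libraries. It rose from 9.94, 6.94 and 5.43 to 178, 111 and 172 in MDA-MB-468 libraries, a difference of -6.16 (adjusted p = 4.29e-22).

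MYCN (chromosome 2, 15940550 to 15947004), a transcription factor of the MYC family, fell from 94.2, 117 and 93.9 to 8.86, 11.2 and 22.01 in SUM1315 cells. In MDA-MB-468 cells it rose from 5.90, 7.56 and 13.3 to 30.7, 60.2 and 43.8, with log2 fold changes of -2.86 and 2.23. Against untreated MDA-MB-468 cells the rise was 0.81 and short of the threshold. NCAM2 (chromosome 21, 20998409 to 21543329), a neural adhesion molecule, fell from 44.9, 38.2 and 39.97 to 5.13, 4.26 and 11.6 in SUM1315 cells, and in MDA-MB-468 cells it went from 0 reads to 44, 36 and 51 reads per library, at least 76.8-fold higher. The exchange factor DOCK11 (-2.44 and 2.13), the phospholipase PLD1 (-2.25 and 2.02) and the apolipoprotein APOL3 (-1.81 and 2.31) had the same pattern of log2 fold changes. Each of these 3 had an interaction with an adjusted p of at most 1.01e-07.

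Large interactions were also found in genes not counted among the leading concordant and discordant ones. IGFBP5 (chromosome 2, 216672105 to 216695549), a binding protein of insulin-like growth factors, rose from 23.5, 15.97 and 18.99 to 1613, 1425 and 1266 in SUM1315 libraries. In MDA-MB-468 libraries it was at 124, 122 and 136 and 62.2, 55.7 and 71.04, a log2 fold change of -1.01 that was under the fold limit with a pseudocount of 5 (-0.96) and without replicate 2 of OlaR (-0.92) or replicate 3 of olaparib-treated (-0.96) MDA-MB-468 cells. EDN1 (chromosome 6, 12230516 to 12297194), the vasoactive peptide endothelin-1, rose from 5.43, 24.8 and 5.00 to 784, 751 and 845 in SUM1315 cells and was at 104, 99.99 and 101 and 82.3, 76.2 and 76.5 in MDA-MB-468 cells. EDNRB (chromosome 13, 77895487 to 77975527), a receptor of endothelins, had 0 reads in olaparib-treated and 76, 79 and 67 reads in OlaR MDA-MB-468 libraries, at least 130-fold higher, and was at 65.5, 58.6 and 61.96 and 53.01, 60.9 and 46 in SUM1315 libraries. So the ligand rose in SUM1315 cells and the receptor in MDA-MB-468 cells, with line differences of 6.68 and -6.72 (adjusted p = 1.16e-16 and 2.67e-16 from limma). The size and p-value for EDNRB depend on the pseudocount, since its olaparib-treated MDA-MB-468 libraries held 0 reads.

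The receptor ADGRF1 rose from 20.7, 8.96 and 17.99 to 741, 704 and 725 in SUM1315 libraries, against a log2 fold change of -0.19 in MDA-MB-468 cells. FARP1, an exchange factor of small GTPases, went from at most 3 reads to 79, 110 and 69 reads per library in SUM1315 cells, against -0.37 in MDA-MB-468 cells. MAGED1, an adaptor of apoptosis signalling, had 703, 568 and 553 reads in olaparib-treated MDA-MB-468 libraries and 2, 1 and 0 in OlaR libraries, against a log2 fold change of -0.75 in SUM1315 cells. CYB5A, a haem protein that carries electrons, was discordant, with log2 fold changes of 1.16 and -4.59. MGP, an inhibitor of calcification, was discordant the other way, from 241, 334 and 261 reads to 0, 0 and 6 in SUM1315 cells and from 14960, 14650 and 14770 to 29550, 30820 and 30520 adjusted read counts in MDA-MB-468 cells. Its rise in MDA-MB-468 cells was 0.52 against untreated cells, under the fold limit. KLHL9 had 311, 358 and 223 reads in olaparib-treated and 0, 1 and 0 in OlaR SUM1315 libraries and was at -0.08 (log2 fold change) in MDA-MB-468 cells. WWC2 and AKAP7 went the other way, from at most 4 and 1 reads per library to 92, 90 and 114 and 95, 82 and 75 in MDA-MB-468 cells, against -0.47 and -0.20 in SUM1315 cells.

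A number of DEGs could not be compared because the other line hardly expressed the gene, which holds for 508 of the SUM1315 DEGs and 437 of the MDA-MB-468 DEGs. In SUM1315 OlaR cells these included SHH, the hedgehog ligand, with 2, 1 and 1 reads per olaparib-treated and 104, 95 and 110 per OlaR library, and the hair keratin KRT34, with 0, 1 and 3 and 285, 267 and 307. SPANXN4 and KRTAP7-1, which are normally made in testis and hair, had 0 reads in olaparib-treated cells and were at least 86.1-fold and 69.4-fold higher. Other such genes fell in SUM1315 OlaR cells. BGN (biglycan) went from 73, 90 and 69 reads to 0, at least 43.9-fold lower, COL3A1 (type III collagen) from 199, 168 and 151 to 0, 1 and 2, APOE from 220, 254 and 301 to 0, 5 and 1 and FGD5 from 113, 129 and 137 to 0, 1 and 2. In MDA-MB-468 OlaR cells, MMP7 (chromosome 11, 102520508 to 102530747), the protease matrilysin, rose from 33.1, 20.1 and 34.2 to 4053, 4395 and 4263 adjusted read counts, a log2 fold change of 7.17 (adjusted p = 8.88e-35 from limma). A2M, an inhibitor of proteases, had 1, 5 and 0 reads per olaparib-treated and 281, 332 and 305 per OlaR library. The actin regulator WASF3 had 2, 1 and 1 and 163, 162 and 142, and the secreted glycoprotein OLFM4 had 1, 0 and 0 and 51, 71 and 52. The chaperone CRYAB went from 118, 119 and 63 to 1, 1 and 0 reads, SYNE4 from 141, 135 and 98 to 4, 0 and 0, AFAP1-AS1 from 98, 105 and 102 to 0, 2 and 1 and C9orf64 from 107, 72 and 58 to 1, 2 and 0.

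Interferon-stimulated genes (ISGs), which cells switch on against viruses and in response to misplaced DNA, separated the lines. In SUM1315 cells 26 of the 42 tested were lower in OlaR cells (9.06% of all genes) and 0 were higher (7.52%), with a median log2 fold change of -1.23 against -0.05 over all genes tested. In MDA-MB-468 cells 8 of 36 were higher and 2 lower (7.13% and 7.12% of all genes), with a median of 0.08 against -0.03. The interaction was negative for 26 members (22.9% of all genes) and positive for 1 (22% of all genes), and without replicate 3 of olaparib-treated SUM1315 cells 25 members were lower there. At the higher and lower CDDP doses, 21 and 29 were lower in SUM1315 OlaR cells (9.91% and 8.44% of all genes) with 0 higher, and 7 and 6 were higher in MDA-MB-468 OlaR cells (6.41% and 6.12%) with 3 lower at each (8.17% and 7.49%). In bulk RNA, a smaller share of cells with a transcript and less of it per cell cannot be told apart.

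The list had 5 discordant members, IFI44, HERC5, HERC6, SAMD9 and SAMD9L, of which all but HERC5 were named after their values were seen. SAMD9 (chromosome 7, 93099518 to 93117979), an antiviral factor, was at 195, 224 and 269.8 in olaparib-treated and 94.7, 86.3 and 133 in OlaR SUM1315 libraries. In MDA-MB-468 libraries it was at 34.8, 28.6 and 30.5 and 178, 166 and 175. Its groups did not overlap in either line, with log2 fold changes of -1.14 and 2.43 (adjusted p = 5.99e-06 and 7.42e-14 from limma). IFI44 fell from 214, 208 and 258 to 26.4, 46.8 and 65.02 in SUM1315 cells and rose from at most 4 reads to 17.5, 11.2 and 8.81 adjusted read counts in MDA-MB-468 cells. HERC5, the ligase that attaches ISG15 to proteins, fell from 122, 92.7 and 73.9 to at most 3 reads per library in SUM1315 cells and rose from 17.5, 6.69 and 22.4 to 38.95, 54.9 and 58.9 in MDA-MB-468 cells. HERC6, a relative of HERC5, changed by -1.35 and 1.01, and SAMD9L, the neighbour of SAMD9, by -1.53 and 1.89. IFIT2, which blocks viral translation, fell from 281, 265 and 276 to 27.8, 23.4 and 28.4 and had a log2 fold change of 0.30 in MDA-MB-468 cells, and IFI44L fell from 72.5, 104 and 105 to 8.71, 2.59 and 6.35. With untreated cells as the reference the line difference of IFIT2 was -0.53 and no longer past the threshold (adjusted p = 0.206). Concordant falls were found for IRF7 (-1.38 and -1.56), a regulator of interferon genes, and IFITM2 (-1.08 and -3.85), the former chosen after its values were seen and the latter under the fold limit in SUM1315 cells when libraries were centred on their medians (-0.99) and against untreated cells (-0.97).

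ISG promoters often hold the interferon-stimulated response element, so the letters GAAANNGAAA were searched on both strands in the RefSeq promoters of GRCh38.p14, from 250 bases before to 50 bases after a gene's start. They were found in 3.57% of all 35116 promoters and in 21 of the 34 list members with a promoter (61.8%). The share was 12 of 20 (60%) among members lower in SUM1315 OlaR cells and 9 of 13 (69.2%) among tested members that were not lower. It was 6 of 8 (75%) among members higher in MDA-MB-468 OlaR cells and 3 of 5 (60%) among the discordant members. The 250 bases before the start of the 3 discordant members with a match are shown here because the same reference sequence lies before a gene that fell in one line and rose in the other. They are chr1:78649539-78649788 on the plus strand for IFI44, chr4:88456869-88457118 on the plus strand for HERC5 and chr7:93117980-93118229 on the minus strand for SAMD9, each written 5′ to 3′ with the matches in capitals.
IFI44: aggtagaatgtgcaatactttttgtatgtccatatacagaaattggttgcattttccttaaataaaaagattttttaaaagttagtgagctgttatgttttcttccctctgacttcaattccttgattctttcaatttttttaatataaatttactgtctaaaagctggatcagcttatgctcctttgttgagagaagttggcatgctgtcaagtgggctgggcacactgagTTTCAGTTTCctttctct
HERC5: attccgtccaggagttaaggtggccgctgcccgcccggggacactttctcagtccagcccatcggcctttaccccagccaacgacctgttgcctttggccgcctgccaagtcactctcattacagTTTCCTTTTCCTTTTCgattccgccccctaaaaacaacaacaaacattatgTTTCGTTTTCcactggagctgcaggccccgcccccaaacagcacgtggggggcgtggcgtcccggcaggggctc
SAMD9: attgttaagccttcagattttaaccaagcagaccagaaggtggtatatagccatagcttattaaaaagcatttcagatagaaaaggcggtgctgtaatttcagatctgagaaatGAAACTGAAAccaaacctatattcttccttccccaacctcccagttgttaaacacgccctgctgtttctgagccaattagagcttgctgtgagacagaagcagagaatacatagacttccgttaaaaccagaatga
HERC5 has 3 matches, of which the first 2 overlap, and a match describes the letters and not a site in use.

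Overnight olaparib came with changes of its own in parental cells, whose libraries the comparisons above share. Against untreated cells 655 genes were higher in them (4.99%) and 573 lower (4.36%) in SUM1315, and 85 (0.653%) and 141 (1.08%) in MDA-MB-468. Of the 42 ISGs, 11 were higher and 0 lower in olaparib-treated SUM1315 cells, and of the 36 in MDA-MB-468 cells 1 was higher. With untreated SUM1315 cells as reference, 14 ISGs were lower and 2 higher in OlaR cells, where 12.4% of all genes were lower and 10.7% higher. SAMD9 had a mean of 59.0 in untreated SUM1315 cells, under each OlaR library, while IFI44 had 101, above each of them. Among genes of MHC class I presentation, 4 of 18, HLA-B and NLRC5 among them, were lower in SUM1315 (9.06% of all genes) and 0 in MDA-MB-468 OlaR cells (7.12%), with 10 negative interactions and 1 positive one (22.9% and 22% of all genes). HLA genes are close copies whose reads could be split. HLA-B fell from 6847, 6719 and 6823 to 2241, 2153 and 2123 in SUM1315 libraries and was at 2545, 2655 and 2458 and 3261, 3416 and 3378 in MDA-MB-468 libraries, so OlaR libraries were lower in the former and higher in the latter line (log2 fold changes -1.65 and 0.39, difference adjusted p = 5.69e-29 from limma). NLRC5, the activator of these genes, fell by 1.79 in SUM1315 cells and had a log2 fold change of -0.81 in MDA-MB-468 cells.

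**Figure D4:**
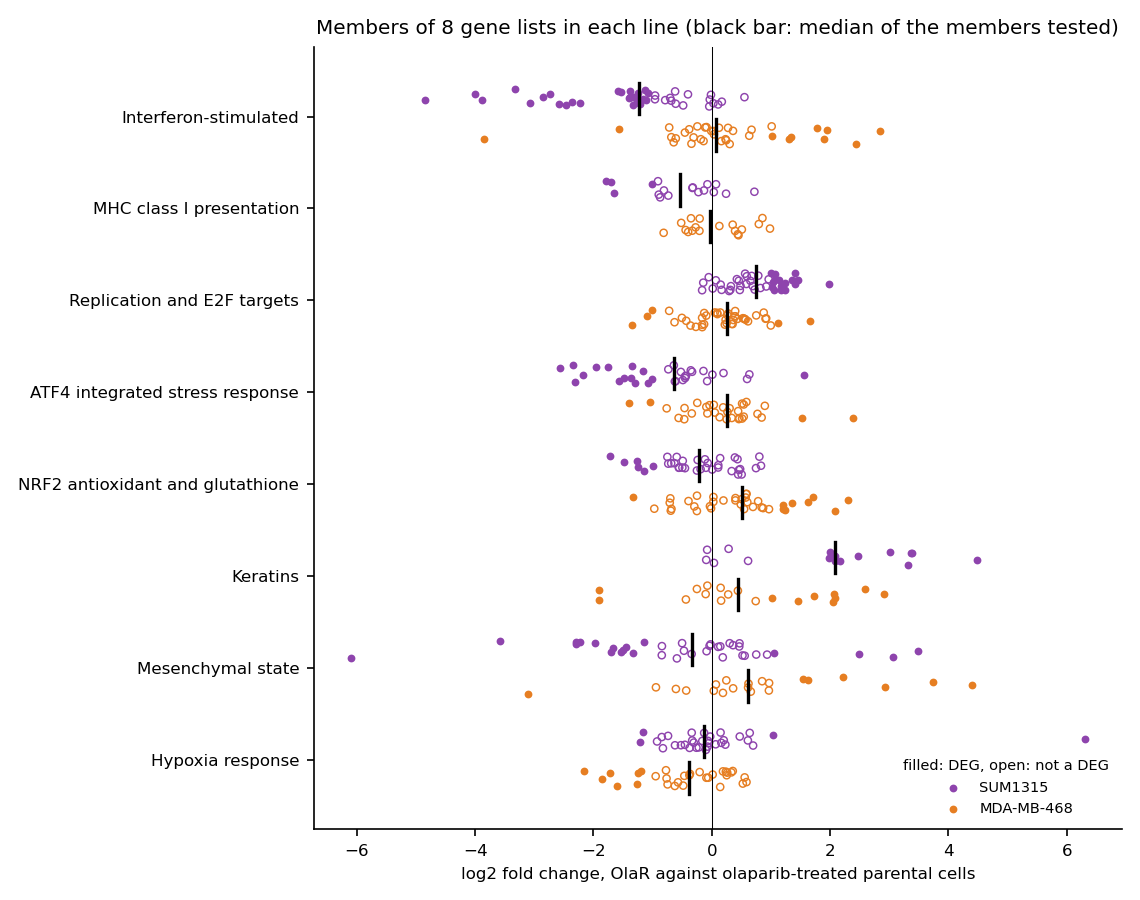
Each point is a member of 1 of 8 gene lists, placed by its log2 fold change between OlaR and olaparib-treated parental cells in SUM1315 (purple) or MDA-MB-468 cells (orange), filled when it is a DEG, with a black bar at the median of the members tested. Medians of the interferon-stimulated list stand at -1.23 for SUM1315 and 0.08 for MDA-MB-468 cells, and those of the keratins at 2.08 and 0.44.

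Genes of DNA replication and targets of E2F, which cells express as they enter S phase, were higher in SUM1315 OlaR cells. Of 42 tested, 17 rose and 0 fell (7.52% and 9.06% of all genes), with a median log2 fold change of 0.76 against -0.05 over all genes, whereas in MDA-MB-468 cells 2 of 43 (CDC45 and RFC2) rose and 3 (E2F8, RRM1 and WEE1) fell, shares no larger than those of all genes (7.13% and 7.12%), with a median of 0.25. Members named beside small counts here and in the lists that follow were in part chosen after their values were seen. The interaction was positive for 23 members and negative for 1, against 22% and 22.9% of all genes. MCM4, a part of the replicative helicase, was at 446, 465 and 443 and 1110, 1217 and 1253 in SUM1315 libraries and at 911, 773 and 962 and 1043, 1019 and 1074 in MDA-MB-468 libraries. The log2 fold changes of MCM4 were 1.40 and 0.25, with a difference of 1.15 (adjusted p = 8.51e-13 from limma). CCNE1, which drives entry into S phase, rose from 73.9, 78.7 and 59.96 to 166, 209 and 189.9 in SUM1315 cells and was at 236, 242 and 214 and 215, 181 and 223 in MDA-MB-468 cells. RFC2, a subunit of the clamp loader, was the concordant exception and rose from 86.03, 96.9 and 60.95 to 278, 348 and 328 and from 140.1, 163 and 177 to 527, 463 and 522. At the higher and lower CDDP doses, 6 and 11 members were higher in SUM1315 OlaR cells (5.96% and 7.07% of all genes) and 0 lower (9.91% and 8.44%).

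Genes of G2 and mitosis gave 1 higher and 5 lower of 40 in SUM1315 OlaR cells and 0 higher and 1 lower of 40 in MDA-MB-468 OlaR cells, where 9.06% of all genes were lower in SUM1315 and 7.12% in MDA-MB-468 OlaR cells, so these counts do not set the list apart. The interaction was positive for 14 and negative for 10 members (22% and 22.9% of all genes). With the untreated reference it was positive for 26 and negative for 7. Those lower in SUM1315 cells were PLK1, CENPE, CENPF (-1.48), HMMR (-1.33) and KIF14 (-1.17), and the checkpoint kinase BUB1 was higher by 1.00, a call that was lost without replicate 3 of olaparib-treated SUM1315 cells. CENPE, a motor of the kinetochore, fell from 1039, 1038 and 1608 to 329, 283 and 250.2 in SUM1315 libraries and was at 892, 945 and 874 and 824, 829 and 811 in those of MDA-MB-468 (difference -1.93, adjusted p = 3.04e-10 from limma). PLK1, a mitotic kinase, fell in both lines, by 1.69 and 1.08, the latter 0.95 and under the fold limit without replicate 3 of olaparib-treated MDA-MB-468 cells. The counts of this list changed with the reference. In olaparib-treated against untreated SUM1315 cells 20 of the 40 were higher and 0 lower (4.99% and 4.36% of all genes), and OlaR cells against untreated cells had 12 higher and 1 lower (10.7% and 12.4% of all genes), with CENPE and CENPF at -0.79 each and HMMR at -0.01, none of them called, and PLK1 was at -0.54 in MDA-MB-468 cells.

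Of the targets of ATF4, which cells induce when amino acids run short or proteins misfold, 14 of 32 were lower and 1 higher in SUM1315 OlaR cells (9.06% and 7.52% of all genes). In MDA-MB-468 OlaR cells 2 of 32 were lower and 2 higher, near the shares of all genes (7.12% and 7.13%), and 24 members had a negative interaction and 1 a positive one (22.9% and 22% of all genes). The medians were -0.63 and 0.26. PCK2 and CTH, enzymes of gluconeogenesis and of cysteine synthesis, fell in both lines, and the amino acid carrier SLC7A5 (1.52) and GDF15 (2.39) rose in MDA-MB-468 cells. CHAC1 (chromosome 15, 40953471 to 40956512), which breaks down glutathione, fell from 178, 182 and 148 to 26.7, 29.2 and 27.3 in SUM1315 libraries and was at 42.1, 58.9 and 44.8 and 70.6, 71.3 and 76.2 in those of MDA-MB-468. DDIT4, an inhibitor of mTORC1, fell from 3804, 3841 and 3388 to 736, 675 and 765 in SUM1315 cells and had a log2 fold change of -0.56 in MDA-MB-468 cells. The line differences were -3.15 and -1.78 (adjusted p = 3.67e-17 and 4.03e-15 from limma). Untreated cells had more CHAC1 than any of these groups, with means of 547 and 345, so against that reference it was lower in OlaR cells of both lines (-2.23 in MDA-MB-468), and 22 and 7 members of the list were lower in SUM1315 and MDA-MB-468 OlaR cells (12.4% and 7.92% of all genes). GDF15, a stress-induced cytokine, likewise turned from 0.63 to -1.84 in SUM1315 cells with the untreated reference, and its rise in MDA-MB-468 cells was then 0.14 and not called. After the higher CDDP dose 11 members were lower and 0 higher in SUM1315 and 10 lower and 1 higher in MDA-MB-468 OlaR cells, where 9.91% and 8.17% of all genes were lower. After the lower dose 13 were lower and 1 higher in the former and 4 lower and 0 higher in the latter (8.44% and 7.49% of all genes lower).

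Of the targets of NRF2, which protect from oxidants, 8 of 37 were higher and 1 lower in MDA-MB-468 OlaR cells (7.13% and 7.12% of all genes), with a median log2 fold change of 0.51. The one that fell was TALDO1 (-1.33), of the pentose phosphate pathway. In SUM1315 OlaR cells 0 of 36 were higher and 6 lower (7.52% and 9.06% of all genes), with 19 negative and 5 positive interactions (22.9% and 22% of all genes). AKR1C1 (chromosome 10, 4963415 to 4983283), a ketosteroid reductase, rose from 145, 169 and 109.9 to 630.5, 761 and 690 in MDA-MB-468 libraries and was at 615, 649 and 686 and 451, 419 and 422 in SUM1315 libraries. AKR1C2 rose from 215, 226 and 229.6 to 925, 966 and 959 in the former and was at 771, 897 and 948 and 879.6, 906 and 835 in the latter. These 2 genes are close copies, and reads could be split between them. Their line differences were -2.90 and -2.08 (adjusted p = 7.20e-19 and 5.25e-17 from limma). At the CDDP doses 11 and 8 members were higher in MDA-MB-468 OlaR cells (6.41% and 6.12% of all genes), whereas in SUM1315 OlaR cells only 1 and 0 were lower (9.91% and 8.44%). Against untreated SUM1315 cells 6 were higher and 3 lower (10.7% and 12.4% of all genes), so the balance of the list in SUM1315 cells turned with the reference. With the untreated reference 12 interactions were positive and 15 negative.

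Of the keratins, the filaments of epithelial cells, 11 of 16 were higher and 0 lower in SUM1315 OlaR cells (7.52% and 9.06% of all genes), with a median log2 fold change of 2.08, and in MDA-MB-468 cells 8 of 19 were higher and 2 lower (7.13% and 7.12%), with a median of 0.44. There were 5 concordant higher keratins, KRT5, KRT9, KRT15, KRT17 and KRT23, and 1 discordant, KRT81 (2.47 and -1.91), of which KRT9, KRT15 and KRT81 were named after their values were seen. KRT5, the basal partner of KRT14, rose from 520.5, 498 and 412 to 3731, 3694 and 3339 in MDA-MB-468 libraries and from at most 4 reads to 14, 17 and 13 reads in SUM1315 libraries. KRT80 rose from 58.2, 40.7 and 33.97 to 422, 389 and 565 in SUM1315 cells and was at 152, 155 and 148 and 259, 255 and 248.7 in MDA-MB-468 cells, a difference of 2.62 (adjusted p = 1.14e-14 from limma). At the higher and lower CDDP doses 11 and 9 keratins were higher and 0 lower in SUM1315 OlaR cells (5.96% and 7.07% of all genes higher), and 6 and 8 were higher and 1 and 2 lower in MDA-MB-468 OlaR cells (6.41% and 6.12% higher, 8.17% and 7.49% lower). In olaparib-treated against untreated SUM1315 cells 7 of the 16 were lower and 1 higher (4.36% and 4.99% of all genes), and against untreated SUM1315 cells 7 were higher and 2 lower in OlaR cells (10.7% and 12.4% of all genes), with KRT23 at -0.44.

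Of genes of the mesenchymal state 13 of 37 were lower and 4 higher in SUM1315 OlaR cells, and 6 of 21 were higher and 1 lower in MDA-MB-468 OlaR cells. Of all genes 9.06% were lower in the former and 7.13% higher in the latter. Of the 20 tested in both lines 0 were discordant, and 11 had a negative and 4 a positive interaction (22.9% and 22% of all genes). Against untreated MDA-MB-468 cells 4 were higher and 3 lower (7.07% and 7.92% of all genes). Those higher in SUM1315 cells included the matrix and adhesion genes CTGF, CYR61 (3.06) and THBS1 (2.49), and the one lower in MDA-MB-468 cells was tropomyosin TPM2 (-3.11). SNAI1, a repressor of epithelial genes, fell from 107, 113 and 86.9 to 9.05, 7.14 and 6.66 in SUM1315 cells and was at 27.7, 8.93 and 11.7 and 23.8, 23.3 and 20.8 in MDA-MB-468 cells (difference -4.20, adjusted p = 5.66e-09 from limma). COL5A1, a fibrillar collagen, went from at most 2 reads to 53, 28 and 30 reads per library in MDA-MB-468 cells and was at 878, 952 and 992 and 487, 555 and 530 adjusted read counts in SUM1315 cells. SERPINE2, an inhibitor of serine proteases, rose from 3, 4 and 5 to 40, 42 and 36 reads in MDA-MB-468 cells and had a log2 fold change of -0.04 in SUM1315 cells. COL1A1 and PDGFRB, given above as markers of other cell types, are members of this list and fell with it in SUM1315 cells. In the list of the epithelial state 1 of 15 genes was higher and 1 lower in SUM1315 cells, with a median of 0.38, and 1 of 34 was higher and 2 lower in MDA-MB-468 cells, all under the shares of all genes (7.52% and 9.06%, 7.13% and 7.12%). The counts in SUM1315 cells depended on the comparison. At the higher and lower CDDP doses 5 and 3 were higher (5.96% and 7.07% of all genes) and 1 and 2 lower (9.91% and 8.44%). Against untreated SUM1315 cells 4 were higher and 1 lower (10.7% and 12.4%). SPINT2 was also called higher in SUM1315 cells with a pseudocount of 5 (1.09), with edgeR and TMM (1.49) and with DESeq2 (1.53). The interaction was positive for 6 and negative for 1 (22% and 22.9% of all genes). The higher one in SUM1315 cells was KRT7 (1.98, and 0.65 against untreated cells), and the lower one was CDH3, the epithelial P-cadherin (-2.83), against -0.09 in MDA-MB-468 cells.

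Of the hypoxia genes 7 of 31 were lower and 0 higher in MDA-MB-468 OlaR cells, where 7.12% and 7.13% of all genes were. In SUM1315 OlaR cells 2 of 33 were lower and 2 higher, under the shares of all genes (9.06% and 7.52%), with 15 positive and 7 negative interactions (22% and 22.9% of all genes). Those lower in SUM1315 cells were PFKFB3 (-1.21), a regulator of glycolysis, and P4HA1 (-1.17), a collagen hydroxylase, and those higher were ADM and EDN1. ADM, the peptide adrenomedullin, fell from 128, 152 and 136 to 50.5, 33.5 and 30.9 in MDA-MB-468 cells and rose from 62.5, 69.9 and 72.95 to 156, 139 and 131 in SUM1315 cells. Its log2 fold change of 1.04 in SUM1315 cells was under the limit against untreated cells (0.90) and without replicate 1 of the OlaR (0.97) or olaparib-treated (0.98) SUM1315 libraries. ANGPTL4, an inhibitor of lipoprotein lipase, fell from 282, 302 and 384 to 73.99, 85.1 and 56.6 in MDA-MB-468 cells and was at 139, 98.5 and 88.9 and 145, 169 and 178 in SUM1315 cells. At the higher and lower CDDP doses 4 and 3 members were lower in MDA-MB-468 OlaR cells (8.17% and 7.49% of all genes) and 2 and 1 higher (6.41% and 6.12%), with medians of 0.16 and -0.26 against -0.38 without CDDP.

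In the TGF-β and activin list, which holds INHBA, 9 of 33 members rose and 1 fell in SUM1315 OlaR cells (7.52% and 9.06% of all genes), and 4 of 31 rose and 4 fell in MDA-MB-468 OlaR cells (7.13% and 7.12%). In olaparib-treated against untreated SUM1315 cells 10 of the 33 were lower and 0 higher (4.36% and 4.99% of all genes), and OlaR against untreated SUM1315 cells had 5 higher and 3 lower (10.7% and 12.4% of all genes). Besides INHBA, the ligand genes INHBB (2.61) and TGFB1 (1.52) and the inhibitor ID4 (1.20) rose in MDA-MB-468 cells, and the receptor TGFBR3 (-1.59), the binding proteins LTBP1 (-1.19) and LTBP2 (-1.22) and the ligand BMP4 (-1.64) fell. In SUM1315 cells the one that fell was INHBE (-2.55). FSTL3, which binds and blocks activin, rose from 52.6, 27.5 and 38.97 to 263, 272 and 264 in SUM1315 cells and was at 14.4, 13.8 and 20.5 and 15.5, 21.4 and 6.67 in MDA-MB-468 cells (difference 3.03, adjusted p = 3.62e-07 from limma, and 0.132 with the untreated reference). NOG, an antagonist of BMPs, rose from 18.4, 36.9 and 39.97 to 373, 485 and 409.6 in SUM1315 cells and was too low to test in MDA-MB-468 cells. Of the ligands of EGF receptors, NRG1 rose from 12.1, 15.5 and 11.99 to 237, 191 and 194 in SUM1315 cells and had at most 1 read in MDA-MB-468 libraries. LCN2, which sequesters bacterial iron carriers, rose from 42.8, 48.4 and 64.96 to 659, 661 and 548 in SUM1315 and was at 143, 141 and 77.9 and 199, 196 and 164 in MDA-MB-468 libraries. S100A8, a subunit of calprotectin, fell from 315, 372 and 264 to 36.9, 35.6 and 32.9 in MDA-MB-468 cells and was at 9324, 8862 and 8843 and 7639, 7502 and 8359 in SUM1315 cells.

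PARP1 (chromosome 1, 226360691 to 226408093), the target of olaparib, was not a DEG in either line but differed between them. It was at 1394, 1329 and 1277 in olaparib-treated and 1781, 1829 and 1680 in OlaR SUM1315 libraries, and at 1322, 1244 and 1338 and 823, 864 and 808 in those of MDA-MB-468. The OlaR libraries all lay above the parental ones in SUM1315 and all below in MDA-MB-468, with log2 fold changes of 0.40 and -0.65 and a difference of 1.05 (standard error 0.11, adjusted p = 2.02e-11 from limma). PARG was at 99.8, 102 and 129 and 56.2, 55.8 and 58.8 in SUM1315 libraries and at 142, 156 and 166 and 149.6, 181 and 140.1 in MDA-MB-468 libraries, with a difference of -0.95 (adjusted p = 0.000733) that was -0.22 and no longer past the threshold against untreated cells. In the list of PARPs and ADP-ribose enzymes 4 of 23 (PARP8, PARP9, PARP14 and MACROD1) fell and 0 rose in SUM1315 cells, where 9.06% of all genes were lower, and 0 of 20 fell and 1 rose in MDA-MB-468 cells (7.13% of all genes), NAMPT (1.17), which makes the NAD precursor that PARPs need. Against untreated cells PARP9 was at -0.55 in SUM1315 cells, under the fold limit. MACROD1, a hydrolase of ADP-ribose, fell from 84.4, 66.4 and 49.96 to 10.9, 13.2 and 8.56 in SUM1315 cells and was at 202, 239 and 194 and 200.2, 191 and 157 in MDA-MB-468 cells.

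TP53BP1 had log2 fold changes of 0.24 and -0.16 and the replication-stress factor SLFN11 of -0.27 and -0.35, all under the fold limit. TP53BP1 had a positive line interaction. It was lost against untreated cells (0.20, adjusted p = 0.223 from limma) and without replicate 3 of olaparib-treated MDA-MB-468 cells (0.29, adjusted p = 0.0887). SLFN11 had an interaction only with the untreated reference (difference 0.82, adjusted p = 0.000103), among these references. In homologous recombination, 3 of 40 genes (ATM, BRCA2 and RAD52) fell and 0 rose in SUM1315 cells, and 1 of 41 (XRCC2) rose and 0 fell in MDA-MB-468 cells, shares no larger than those of all genes (9.06% lower in SUM1315 and 7.13% higher in MDA-MB-468 cells). In SUM1315 cells 3 were higher and 3 lower without replicate 3 of olaparib-treated cells, and 11 were higher and 6 lower against untreated cells (10.7% and 12.4% of all genes). BRCA2 was at 124, 149 and 164 and 44.1, 63.1 and 65.7 in SUM1315 libraries and at 519, 516 and 498 and 739, 669 and 626 in MDA-MB-468 libraries, opposite directions with a difference of -1.74 (adjusted p = 5.00e-09 from limma). ATM, the kinase that signals breaks, fell from 176, 214 and 232 to 61.3, 74.4 and 58.5 in SUM1315 cells and had a log2 fold change of -0.34 in MDA-MB-468 cells. RAD52 fell by 1.17 in SUM1315 cells, by less than the fold limit without replicate 1 or 3 of the OlaR group (0.93 and 0.95). BRCA1 had log2 fold changes of 0.57 and 0.34. POLH, the translesion polymerase, was at 222, 215 and 218 and 324, 249.5 and 279.9 in SUM1315 and at 259.6, 231 and 237 and 131, 129 and 113 in MDA-MB-468 libraries, a difference of 1.33 (adjusted p = 8.28e-08).

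ABCB1, the drug efflux pump, had 1, 5 and 0 reads in olaparib-treated and 12, 2 and 17 in OlaR SUM1315 libraries, and at most 3 reads in any of these MDA-MB-468 libraries. Its log2 fold change in SUM1315 cells was 2.79 (adjusted p = 0.00157 from limma) on few reads, and the groups overlapped in reads, with 2 in 1 OlaR and 5 in 1 parental library. Among other transporters, ABCC4 rose from 21.4, 35.4 and 13.7 to 104, 111 and 103 in MDA-MB-468 cells and was at 209, 173 and 207 and 135, 182 and 155 in SUM1315 cells (difference -2.55, adjusted p = 8.44e-08). SLC47A1, an exporter of organic cations, fell from 40.3, 40.2 and 28.98 to at most 2 reads per library in SUM1315 cells and was at 42.8, 22.6 and 17.8 and 42.4, 46.95 and 64.6 in MDA-MB-468 cells. Among other lists, the interaction was positive for 10 and negative for 0 of the 14 clustered histone genes tested in both lines (22% and 22.9% of all genes), and positive for 8 without replicate 3 of olaparib-treated SUM1315 cells. In SUM1315 cells 3 of 15 were higher and 1 lower, and in MDA-MB-468 cells 0 of 19 were higher and 3 lower, and 13 lower at the higher CDDP dose (8.17% of all genes). Against untreated cells 6 were higher and 0 lower in SUM1315 cells (10.7% and 12.4% of all genes), and 0 were higher and 11 lower in MDA-MB-468 cells (7.07% and 7.92%). The medians were 0.59 and -0.52 without CDDP, and -0.53 and -1.40 at that dose, so the median in SUM1315 cells changed sign. Most histone transcripts lack the poly(A) tail that these libraries select. For comparison with the counts of the next lists, 7.52% and 9.06% of all genes were higher and lower in SUM1315, and 7.13% and 7.12% in MDA-MB-468 OlaR cells. Of p53 targets 0 rose and 6 of 30 fell in SUM1315, and 3 of 29 rose and 2 fell in MDA-MB-468 OlaR cells, with PMAIP1, a trigger of apoptosis, at -1.94 and 1.05. The interaction was negative for 15 p53 targets and positive for 4 (22.9% and 22% of all genes). BAX (1.16) and GDF15 also rose and TP53I3 (-1.91) and FDXR (-1.07) fell in MDA-MB-468 cells. The rise of PMAIP1 was under the fold limit against untreated cells (0.44), with a pseudocount of 5 (0.99) and without replicate 2 of OlaR (0.91) or 1 of olaparib-treated MDA-MB-468 cells (1.00). Of NF-κB targets 10 rose and 8 of 48 fell in SUM1315, and 3 rose and 2 of 25 fell in MDA-MB-468 OlaR cells, the latter being TNFAIP3 (1.37), BIRC3 (1.56) and CXCL8 (2.39) against VCAM1 (-2.81) and CSF1 (-1.20). Against untreated cells 5 NF-κB targets rose and 9 fell in SUM1315 cells (10.7% and 12.4% of all genes). Of immediate early genes 3 rose and 5 of 25 fell, and 2 rose and 1 of 24 fell, with FOS, a subunit of AP-1, going from 81, 83 and 39 to 0, 3 and 1 reads in SUM1315 cells. EGR1, EGR3, KLF4 and KLF10 fell with FOS in SUM1315 cells while JUN, NR4A1 and FOSL2 rose, and BTG1 and MAFF rose and EGR1 fell in MDA-MB-468 cells. Against untreated cells 2 immediate early genes rose and 6 fell in SUM1315 cells (10.7% and 12.4% of all genes). In MDA-MB-468 cells 1 rose and 4 fell with that reference (7.07% and 7.92%). At the higher CDDP dose 0 rose and 6 fell in SUM1315 cells (5.96% and 9.91%). The same dose gave 2 higher and 3 lower in MDA-MB-468 cells (6.41% and 8.17%).

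Changes in OlaR cells were also described by position on chromosomes. Whether DEGs lay closer together, or shared fewer places between the lines, than genes placed at random was not tested. Bins of 5 Mb with at least 15 tested genes were compared by the median log2 fold change of their genes. The median was at or beyond 0.5 in either direction in 42 of 330 bins in SUM1315 cells and in 52 of 319 bins in MDA-MB-468 cells. Of the 307 bins present in both, 1 was that low in both lines, 3 were that high in both, 0 were beyond the limit in opposite directions, 35 were beyond it in SUM1315 only and 46 in MDA-MB-468 only. The 3 that were high in both lie on chromosome 7 and start at 125, 130 and 140 Mb, with medians of 0.68, 0.60 and 0.64 in SUM1315 and 0.72, 0.54 and 0.58 in MDA-MB-468 cells. Every shared bin of chromosome 7 that starts from 65000001 to 155000001 had a positive median in both lines. These medians were 0.11 to 0.70 in SUM1315 and 0.29 to 0.76 in MDA-MB-468 cells. CAV1 and SAMD9 lie in this stretch, and its part in their changes was not tested. In SUM1315 cells the lowest bin was the first 5 Mb of chromosome 9, with a median of -1.64 over 17 genes, 11 of them lower. In MDA-MB-468 cells the median was -0.24 over the 18 genes tested there. The SUM1315 median was -1.20 and -1.22 at the higher and lower CDDP doses. In MDA-MB-468 cells the 4 bins of the first 20 Mb of chromosome 11 had medians of -0.95, -1.20, -1.09 and -1.09. In SUM1315 cells the same bins had medians of -0.38, -0.47, -0.68 and 0.20, the third being the one that was low in both lines. RRM1, given above as a replication gene that fell in MDA-MB-468 cells, lies in the first of these 4 bins. It belongs there to neighbouring genes from 3675010 to 4138932 that were all lower, and the part of position in its fall was not tested.

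**Figure D5:**
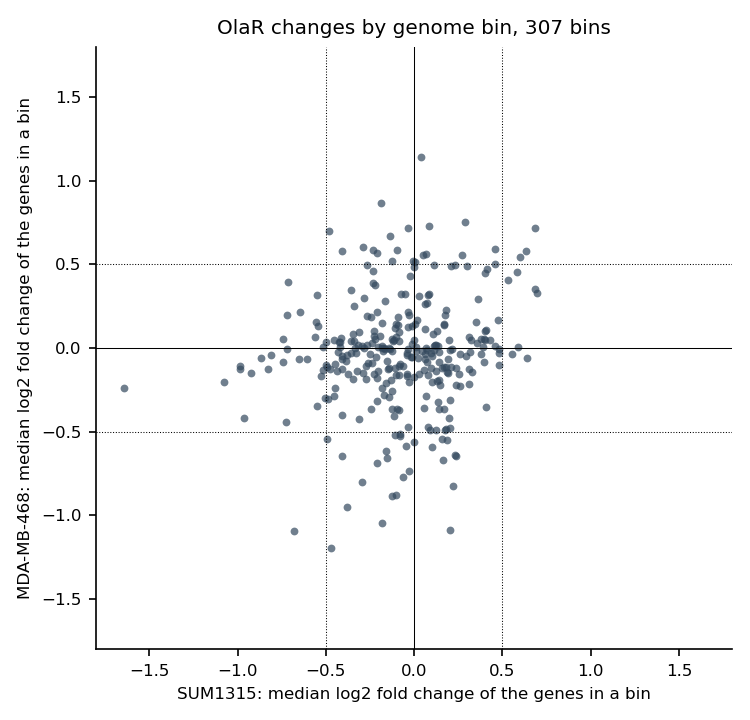
Each point is 1 of 307 genome bins of 5 Mb, with the median log2 fold change of its genes in SUM1315 cells on the x axis and in MDA-MB-468 cells on the y axis. The lower left and upper right corners beyond the dotted lines at -0.5 and 0.5 hold 1 and 3 bins. Beyond the limit in SUM1315 only are 35 bins and in MDA-MB-468 only 46, some near an axis and others close to the limit in the other line too.

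Runs of at least 5 neighbouring tested genes that were all DEGs in the same direction numbered 7 in SUM1315 cells and 12 in the other line. The longest, of 11 genes lower in SUM1315 OlaR cells, spans chromosome 9 from 17135040 to 22824213 and holds CNTLN, RRAGA, HAUS6, DENND4C, RPS6, FOCAD, KLHL9, MIR31HG, CDKN2A, CDKN2B and LINC01239. It includes CDKN2A and CDKN2B, the inhibitors of CDK4 and CDK6, and the ribosomal protein RPS6. None of the 11 was lower in MDA-MB-468 OlaR cells. A run of 9 genes higher in SUM1315 OlaR cells, which holds 8 keratins and hair keratins from KRT23 to KRT14 and the keratin-associated KRTAP2-3, lies on chromosome 17 from 40922700 to 41586895, and 3 of the 9 were higher in MDA-MB-468 OlaR cells too. The longest run in MDA-MB-468 cells had 7 genes, all higher, on chromosome 7 from 45912245 to 47960906, and includes IGFBP3 and TNS3. None of the 7 was higher in SUM1315 OlaR cells.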

How the data were processed

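RNA of 2 TNBC lines was sequenced as 3′ mRNA libraries (QuantSeq), 3 per condition. Per the labels and the study's methods, the authors demultiplexed with CASAVA 1.8.2, checked reads with FastQC, aligned to hg38 with STAR, counted with HTSeq and adjusted the counts with edgeR (versions of STAR and HTSeq are not given in the sources used here). The deposited signal is a read count per gene that edgeR equalised to a common library size of 5585170 within each condition, which pulls low values toward their condition's mean. From the deposited signal the whole reads were recovered for 100% of 1483380 values over 27470 genes, within a relative tolerance of 1e-06. Depth is the sum of the recovered reads.

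Values plus 1 were put on the log2 scale and tested with limma 3.58.1 in R 4.3.3, with a trend of the variance, in genes with at least 10 in at least 3 libraries. Each line was fitted with all its conditions, and the interaction was fitted over both lines on genes that passed in both. P-values were adjusted by Benjamini-Hochberg over all genes tested. edgeR 4.0.16 and DESeq2 1.42.0 on recovered reads were alternatives. All were tested on simulated counts. A fold against a group with 0 reads in every library is a bound set by a floor of 3 reads over the group's libraries, and covers counting error only. Fitted changes of genes with 0 to 3 reads in a group depend on the pseudocount and are no bounds.

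Named genes were the 12 concordant genes in each direction and the 8 discordant genes in each direction with the largest smaller change among those without overlapping groups and a mean of at least 30. To these were added the 6 largest interactions in each direction, 4 genes per direction and line that the other line could not test, 8 repair and transport genes, and up to 4 genes per list. The members and lists were chosen with earlier results of these data known. Some genes that the rule names are not reported here. Gene coordinates and promoters are from RefSeq on GRCh38.p14. Apart from levels given as description, the lines were compared through their own parental cells, since dose, batch of libraries and line cannot be told apart otherwise. The olaparib dose rose from 8 to 25 µM in SUM1315 and from 3 to 15 µM in MDA-MB-468 cells, so the interaction does not separate this step from the line. The libraries were sequenced in batches of 27, and which library was in which batch is not given in the sources used here.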

Additional observations from a re-analysis of the deposited data

Results flagged for a closer look

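The effect of acquired resistance differed between the lines by the test of the interaction itself for 5276 genes, and 153 DEGs had opposite directions. Of 115 genes considered here that the rule for named genes takes and that had an interaction, 57 had a difference of at least 2 on the log2 scale between the log2 fold change in SUM1315 and that in MDA-MB-468 cells, 23 of them positive and 34 negative. These are listed for their size, and no explanation was tested. Values of single genes were not searched for an outlying library, since groups of 3 are too small for that.

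Among the positive differences, where SUM1315 OlaR cells had the higher change, the values were IL1RN 8.63, S100A7 8.50, IGFBP5 7.15, MAGED1 6.98, EDN1 6.68, FARP1 6.36, FAM133A 5.90, CYB5A 5.75, ADGRF1 5.69, GSDMC 3.86, MAOA 3.83 and FRMD3 3.81. The remaining ones were SCARNA22 3.69, SNORA19 3.35, FSTL3 3.03, S100A8 2.92, LCN2 2.90, ADM 2.90, IFITM2 2.77, ANGPTL4 2.77, KRT80 2.62, SPTSSB 2.20 and BIK 2.11. They include members of the lists above, such as KRT80 of the keratins and EDN1, ADM and ANGPTL4 of the hypoxia genes, and no theme among them was tested.

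Among the negative differences, where MDA-MB-468 OlaR cells had the higher change, the values were SLFN5 -2.03, HLA-B -2.04, ETV1 -2.06, AKR1C2 -2.08, BTG1 -2.16, MACROD1 -2.29, EGR3 -2.52, ABCC4 -2.55, EGR1 -2.56, CDH3 -2.74, AKR1C1 -2.90 and PMAIP1 -2.99. Those in the middle were CHAC1 -3.15, IFIT2 -3.63, FOS -3.69, SERPINE2 -3.77, APOL3 -4.12, SNAI1 -4.20, SLC47A1 -4.26, PLD1 -4.27, DOCK11 -4.57, RGS2 -4.89 and MYCN -5.09. The largest were COL5A1 -5.24, HERC5 -5.78, EPS8 -6.16, SERPINI1 -6.44, AKAP7 -6.64, EDNRB -6.72, WWC2 -6.74, KLHL9 -7.51, MGP -7.68, CHRM3 -8.17 and NCAM2 -8.24. They include members of the lists above, such as HERC5 of the ISGs, EGR1 and FOS of the immediate early genes and AKR1C1 and AKR1C2 of the NRF2 targets, and no theme among them was tested. With untreated cells as the reference the difference of IFIT2 was -0.53 (adjusted p = 0.206), that of EGR3 -1.49 (adjusted p = 0.126), that of FSTL3 0.83 (adjusted p = 0.132) and that of ETV1 0.57 (adjusted p = 0.0293), from limma. Without replicate 3 of OlaR SUM1315 or of OlaR MDA-MB-468 cells that of EGR3 was no longer past the threshold (adjusted p = 0.0531 and 0.0658).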

How the results depend on the processing

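Counts moved most with the thresholds. With a fold limit of 2 on the log2 scale SUM1315 cells had 688 DEGs and MDA-MB-468 cells 508, with 25 concordant higher, 6 concordant lower and 22 discordant. Without a fold limit these were 6203, 6702, 970, 1069 and 1130, and an interaction of at least 1 was found for 2315 genes. A stricter filter, which tests fewer genes, left 96 concordant higher and 90 discordant DEGs. When each library was left out in turn there were 2071 to 2124 DEGs (SUM1315) and 1765 to 1822 DEGs (MDA-MB-468) without a library of that line, and over all 12 omissions 137 to 147 concordant higher, 92 to 106 concordant lower, 134 to 162 discordant DEGs and 4922 to 5044 interactions. Untreated parental cells as the reference gave 148 concordant higher, 142 lower and 196 discordant DEGs, of which 65, 49 and 74 were among those of the main comparison. Under that reference the log2 fold change reversed for GDF15 (-1.84), KRT23 (-0.44), DUSP5 (-0.60) and ERRFI1 (-1.18) in SUM1315 cells and CTGF (-0.41), SNORA19 (0.49), CHAC1 (-2.23), EGR3 (-2.47) and ETV1 (-1.46) in MDA-MB-468 cells. The line difference reversed for KRT17 (-0.43), ZBED5-AS1 (1.90), METTL7A (0.45), SREBF1 (0.28), KRT23 (-1.81), ETV1 (0.57) and DUSP5 (-0.89), and for KRT5 with a pseudocount of 5 (-0.80). The cause was not tested. edgeR with TMM kept 143, 90 and 141 of the 146, 99 and 153 genes, and DESeq2 kept 145, 88 and 132. Centring gave 190 concordant higher and 85 lower genes. Replicate numbers did not pair the libraries (correlations of same-numbered deviations from -0.035 to 0.006), and a replicate block gave 2176 and 1849 DEGs, 146, 101 and 151 shared ones and 5263 interactions. Over 23 alternatives, 10462 of 10697 values of named genes kept their call, and 80 of the 178 named genes changed a call under at least 1 of them. OlaR libraries were shallower than parental ones, which limits low genes there.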
